A study of Mus musculus with 21 samples.

Results

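The genes described here are 8 known markers of injured kidney tubule, Havcr1, Krt20, Spp1, Clu, Cp, Vcam1, Sox9 and Cd44, out of 54123 genes in the deposited files. They were chosen by symbol from general knowledge of tubular injury, with earlier results of these data known. Each was read in every library as the sum of estimated reads over its transcripts. All 8 passed the filter on low counts in tubular epithelial cells (TECs) and in neutrophils (PMNs). RNA-Seq had been performed on both cell types, PMNs from blood and TECs from kidney, taken from wild-type mice 24 hours after sham surgery or after ischemia-reperfusion injury (IRI) of the kidney. The mice were male C57BL/6 aged 8 to 12 weeks, and IRI was a clamp on both renal pedicles for 32 minutes. Remote ischemic preconditioning (RIPC), repeated inflation of a cuff around a hind limb, or a control procedure came before surgery, so that each cell type had 4 groups. TECs had 3 libraries after sham surgery without RIPC (sham control), 3 after sham surgery with RIPC (sham RIPC), 2 after IRI without RIPC (IRI control) and 3 after IRI with RIPC (IRI RIPC). PMNs had 2, 3, 2 and 3 libraries in the same order. The study names 3 biological replicate libraries for each group, where 3 of the 8 groups here hold 2. The labels do not say whether libraries of a group came from separate mice. The p-values measure the spread between these libraries, which may be technical in part.

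When the renal tubule is deprived of blood, proximal tubule cells lose part of their transport program and switch on genes of dedifferentiation and repair. Havcr1 encodes KIM-1, a receptor on the surface of injured proximal tubule cells that takes up dying neighbors, and Krt20 encodes an intermediate filament keratin that healthy tubule makes little of. Sox9 is a transcription factor of tubule cells that survive injury and regenerate. Spp1 (osteopontin) and Clu (clusterin) encode secreted glycoproteins, Cp encodes the copper-carrying ferroxidase ceruloplasmin, and Vcam1 and Cd44 encode adhesion molecules that tubule cells in failed repair can carry but that other cells use as well, Vcam1 on activated endothelium and Cd44 on leukocytes. RIPC is studied for its effect on the kidney after IRI, and the comparison of IRI RIPC with IRI control asks whether it changes the transcripts of these markers.

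The genes lie on 5 autosomes of GRCm38: Havcr1 at chr11:46735080-46779578 and Sox9 at chr11:112782224-112787760 on the plus strand, Krt20 at chr11:99428403-99438150 on the minus strand, Spp1 at chr5:104435118-104441050, Clu at chr14:65968483-65981547 and Cp at chr3:19957054-20009145 on the plus strand, and Vcam1 at chr3:116109949-116129688 and Cd44 at chr2:102811141-102901665 on the minus strand. Most reads of Havcr1 in TECs went to the protein-coding transcript that begins at position 46750511, the RefSeq start site used below, which held between 84.4% and 96.7% of them in the 6 libraries with at least 100 reads. Krt20 and Sox9 each had 1 transcript with reads. The Spp1 transcript that begins at position 104435118 held between 75.8% and 93.1% of the reads of that gene in the 11 TEC libraries.

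RefSeq's promoter table (build GRCm38.p6) held 5 of the 8 genes. The 250 bases before the start site are shown for Havcr1, Krt20 and Spp1, because these are the 3 members with the highest TPM (a level scaled by transcript length) in TECs after IRI, and each is written 5′ to 3′ along the gene's own strand. Capitals mark matches to the motifs searched.
Havcr1, chr11:46750261-46750510, plus strand: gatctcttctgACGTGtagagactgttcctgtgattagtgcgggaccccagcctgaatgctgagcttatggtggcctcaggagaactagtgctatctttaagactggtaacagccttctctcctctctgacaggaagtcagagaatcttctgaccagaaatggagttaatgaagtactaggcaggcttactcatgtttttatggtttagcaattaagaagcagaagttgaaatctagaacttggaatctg
Krt20, chr11:99438154-99438403, minus strand: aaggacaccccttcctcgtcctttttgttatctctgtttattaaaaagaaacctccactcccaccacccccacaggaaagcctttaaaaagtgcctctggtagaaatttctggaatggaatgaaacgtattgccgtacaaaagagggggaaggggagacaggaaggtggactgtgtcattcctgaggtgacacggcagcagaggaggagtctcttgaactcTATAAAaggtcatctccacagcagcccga
Spp1, chr5:104434861-104435110, plus strand: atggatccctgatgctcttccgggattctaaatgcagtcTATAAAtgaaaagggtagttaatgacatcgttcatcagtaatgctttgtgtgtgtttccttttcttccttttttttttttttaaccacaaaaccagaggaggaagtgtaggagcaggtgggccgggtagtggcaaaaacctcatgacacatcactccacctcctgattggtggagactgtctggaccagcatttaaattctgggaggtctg
The motifs were searched on both strands from 250 bases before to 50 bases after a start site, and no motif's letters contain another's. They were the AP-1 site TGANTCA, the STAT site TTCNNNGAA, the core of the hypoxia response element ACGTG, the TATA box TATAAA, the HNF1 site and the CRE TGACGTCA. The Krt20 promoter held TATAAA at 29 bases before the start site, and that of Spp1 held it at 211 bases before, where 13.6% of the 32851 windows in the table held it anywhere. ACGTG stood 239 bases before the Havcr1 start site and occurs in 19.6% of windows. The AP-1, STAT, HNF1 and CRE letters, which 7.81%, 8.3%, 0.00913% and 1.79% of windows held, had no match in the windows of these 3 start sites.

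Libraries held between 20881334 and 51624602 estimated reads, and levels are given as CPM, counts scaled to a common library size after TMM, edgeR's correction for composition. TEC libraries carried the markers of proximal tubule, with all 18 genes of that list read in each of the 11 libraries. PMN libraries carried those of neutrophils, whose 9 marker genes summed to between 6670 and 38756 CPM against 1.91 to 123 CPM in TECs. PMN libraries also held proximal tubule transcripts, whose sum lay between 1863 and 14013 CPM after sham surgery and between 1209 and 1651 CPM after IRI, and macrophage transcripts such as C1qa, a complement subunit, at 867 to 2370 CPM after sham surgery and at 66.2 to 371 CPM after IRI. That PMN libraries came from blood is known from the labels alone, and neither the proximal tubule genes nor C1qa are markers of neutrophils. Replicate 1 of the sham control TECs stood apart. The summed level of 30 other genes of tubular injury, 29 of them measured, was 14868 CPM in it, against 1039 to 1448 CPM in the other sham libraries and 10342 to 20000 CPM after IRI, while its proximal tubule sum of 20592 CPM lay within the range of the other sham libraries. Hmox1 (4602 CPM) and Plin2 (2764 CPM) made up much of that injury sum. Of the genes named below, Hmox1 lay above all IRI libraries and Tnfrsf12a (201 CPM) among them. Plin2, Lgals3 (93.6 CPM), Anxa2 (11.4 CPM) and Vim (0 CPM) lay below all IRI libraries. The labels say nothing of a batch or of a different operation for this library. Replicate 2 of the sham control TECs had the fewest genes with a read, 14218 against 20541 or more in the other TEC libraries. TEC results are therefore given with all 11 libraries and, where it matters, without one of these.

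**Figure D1:**
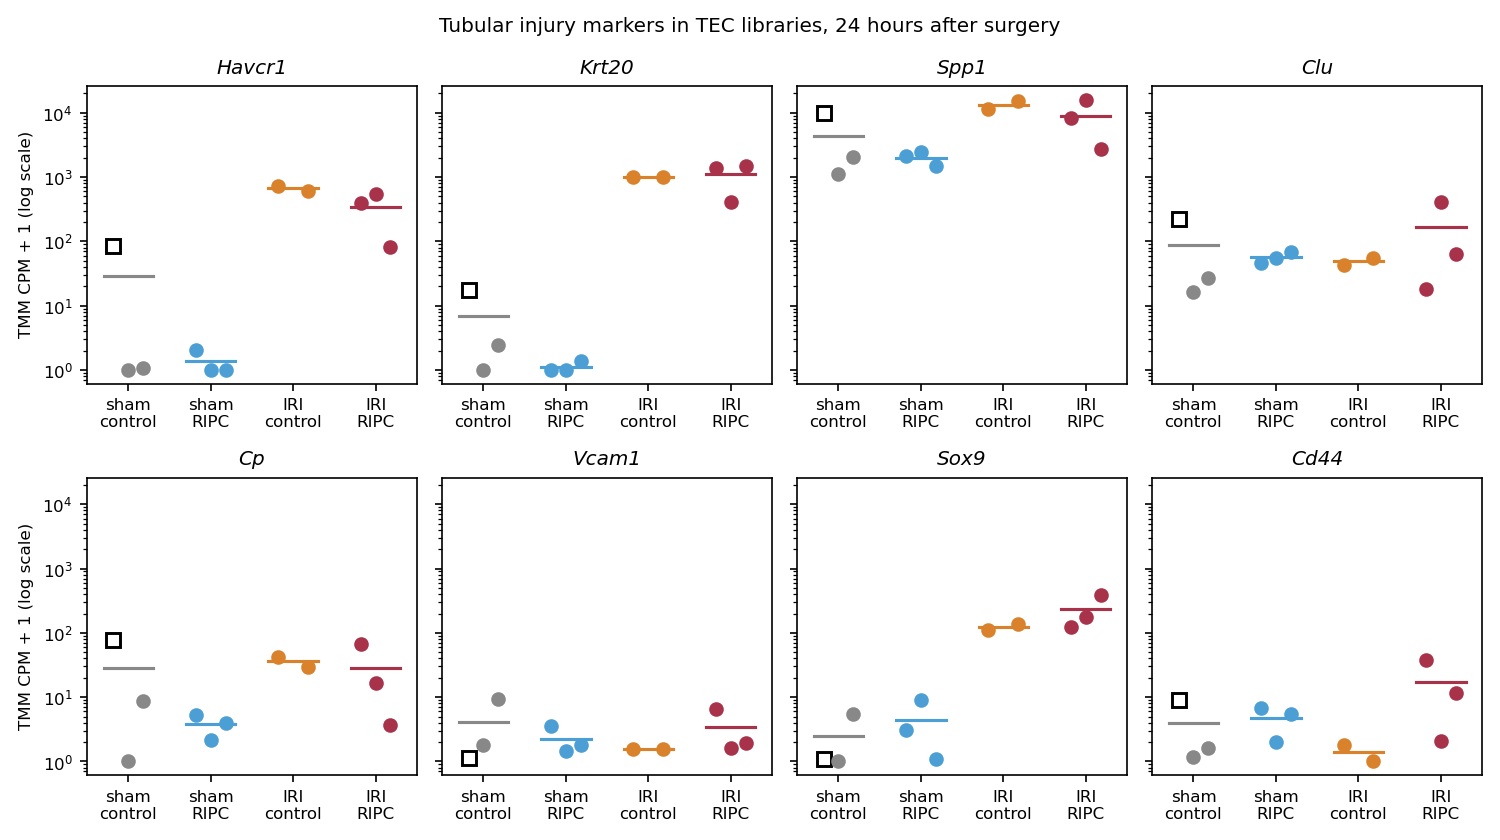
Level of each of the 8 genes in every TEC library (CPM plus 1 on a log scale) in the 4 groups, with each group's mean as a horizontal bar and replicate 1 of sham control as an open square. Havcr1, Krt20 and Sox9 sit at or near 0 CPM in most sham libraries and at 80.2 CPM or more after IRI, and Havcr1 alone is lower in every IRI RIPC library than in every IRI control library.

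After IRI the keratin Krt20 and the transcription factor Sox9 rose in TECs from at most 16.7 CPM to between 109 and 1491 CPM. The receptor Havcr1 and the already abundant Spp1 were higher in both IRI groups as well, but with all libraries they did not pass edgeR's test, and without replicate 1 of sham control they did. Clu, Cp, Vcam1 and Cd44 did not pass edgeR's test with or without that sham library. That library was set apart by its summed injury genes, and Havcr1 and Spp1 were high in it for a sham library. Leaving it out raises their differences, so the calls made without it are not independent of that choice.

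Havcr1 was read in the sham control TECs at 82.8, 0 and 0.0782 CPM in replicates 1, 2 and 3, and in the sham RIPC TECs at 1.07, 0 and 0 CPM. After IRI it stood at 727 and 612 CPM in the control TECs and at 400, 536 and 80.2 CPM in the RIPC TECs. Replicate 1 of sham control was thus the single sham library in which the receptor was plainly present, at a level just above the lowest IRI library. The log2 difference between IRI and sham surgery, averaged over RIPC and control, was 7.23 ± 1.71 (SE) with an adjusted p of 0.0536 in edgeR's quasi-likelihood test over 25917 genes, and without replicate 1 of sham control it was 11.97 ± 1.52 with an adjusted p of 0.00164. With all libraries kept, it passed edgeR's test on file 1 or file 2 alone (adjusted p = 0.0362 and 0.0375), as did 1.68% and 1.67% of genes. It also passed with library size as the only scaling (adjusted p = 0.0361), as did 1.79% of genes. DESeq2's Wald test called it (adjusted p = 0.000294), as it did 8.62% of all genes. In 7 of 11 edgeR fits that each left out 1 library Havcr1 did not pass, with adjusted p-values up to 0.158. Fitted differences of genes with libraries at 0 depend on the count that edgeR adds before taking logs, and they are not bounds.

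Krt20, the keratin, was read at 16.7, 0 and 1.41 CPM in sham control TECs and at 0, 0 and 0.371 CPM in sham RIPC TECs. After IRI it stood at 993 and 991 CPM in the control TECs and at 1379, 414 and 1491 CPM in the RIPC TECs, so the lowest IRI library lay far above the highest sham library. It rose by 10.24 ± 1.44 on the log2 scale (adjusted p = 0.00466), and it passed the test in all 11 fits that each left out 1 library, with adjusted p-values up to 0.0266.

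Sox9, the transcription factor of regenerating tubule, was read at 0.0867, 0 and 4.42 CPM in sham control TECs and at 2.14, 7.9 and 0.0928 CPM in sham RIPC TECs. After IRI it stood at 109 and 137 CPM in the control TECs and at 121, 178 and 394 CPM in the RIPC TECs. The sham and IRI libraries did not overlap, and replicate 1 of sham control was among the lowest for this gene. Sox9 rose by 6.23 ± 1.26 on the log2 scale (adjusted p = 0.0282). The call held in 7 of 11 fits that left out 1 library and was lost without replicate 2 of sham control (adjusted p = 0.0933) and without replicate 1, 2 or 3 of sham RIPC (adjusted p = 0.0994, 0.0621 and 0.0584).

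Spp1, osteopontin, was the most abundant of the 8 in TECs also per length, with a median of 859 TPM over the 11 libraries. Its levels were 9881, 1102 and 2085 CPM in sham control TECs and 2110, 2452 and 1461 CPM in sham RIPC TECs. After IRI they were 11427 and 14975 CPM in the control TECs and 8207, 16048 and 2695 CPM in the RIPC TECs. Replicate 1 of sham control reached the level of the IRI libraries, and replicate 3 of IRI RIPC lay nearest to the other sham libraries. The log2 difference was 1.88 ± 0.51 (adjusted p = 0.0987), and without replicate 1 of sham control 2.62 ± 0.43 (adjusted p = 0.00874). DESeq2's Wald test called it with all libraries (adjusted p = 0.0224).

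Of the other secreted proteins, Clu was read at 222, 15.1 and 25.8 CPM in sham control TECs, at 44.3, 54.9 and 66.2 CPM in sham RIPC TECs, at 42.3 and 54.6 CPM in IRI control TECs and at 17.2, 413 and 62.9 CPM in IRI RIPC TECs. Cp was read at 75.6, 0 and 7.58 CPM, at 4.23, 1.2 and 2.97 CPM, at 41.2 and 28.6 CPM, and at 64.9, 15.9 and 2.74 CPM in the same groups. For both, the highest sham library was replicate 1 of sham control. The log2 differences were 0.36 ± 0.77 for Clu (adjusted p = 0.919) and 1.82 ± 1.23 for Cp (adjusted p = 0.537), and without that library 1.43 ± 0.70 and 3.29 ± 1.34, neither of which passed.

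The adhesion molecules reached at most 37.1 CPM in TECs. Vcam1 was read at 0.13, 0.83 and 8.21 CPM in sham control TECs, at 2.57, 0.439 and 0.789 CPM in sham RIPC TECs, at 0.567 and 0.572 CPM in IRI control TECs and at 5.57, 0.642 and 0.944 CPM in IRI RIPC TECs. Cd44 was read at 8.2, 0.194 and 0.625 CPM in sham control TECs, at 5.81, 1.04 and 4.41 CPM in sham RIPC TECs, at 0.81 and 0 CPM in IRI control TECs and at 37.1, 1.06 and 10.6 CPM in IRI RIPC TECs. Their log2 differences between IRI and sham surgery were -0.75 ± 1.60 and -0.38 ± 1.39, far from the threshold.

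In counts, 2 of the 8 genes rose and none fell with all libraries, where 0.255% of all genes tested rose. Without replicate 1 of sham control 4 of 8 rose, where 0.348% of all genes did. That share does not correct for the choice of this library by its injury genes. Neither share corrects for the choice of the 8 genes, which was made with earlier results of these data known. The libraries of IRI and sham surgery did not overlap for Krt20 and Sox9 with all libraries, a separation upwards that 1.43% of genes tested had, and for Havcr1, Krt20, Spp1 and Sox9 without that library, where 2.31% of genes had it. The median log2 difference of the 8 genes was 1.85, against 0.15 over all genes tested. Leaving out replicate 1 or 2 of IRI control, which leaves 1 library in that group, or replicate 3 of IRI RIPC also brought Havcr1 and Spp1 under the threshold, with adjusted p-values for Havcr1 of 0.000742, 0.000502 and 0.0354 and for Spp1 of 0.00581, 0.0166 and 0.0251.

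**Figure D2:**
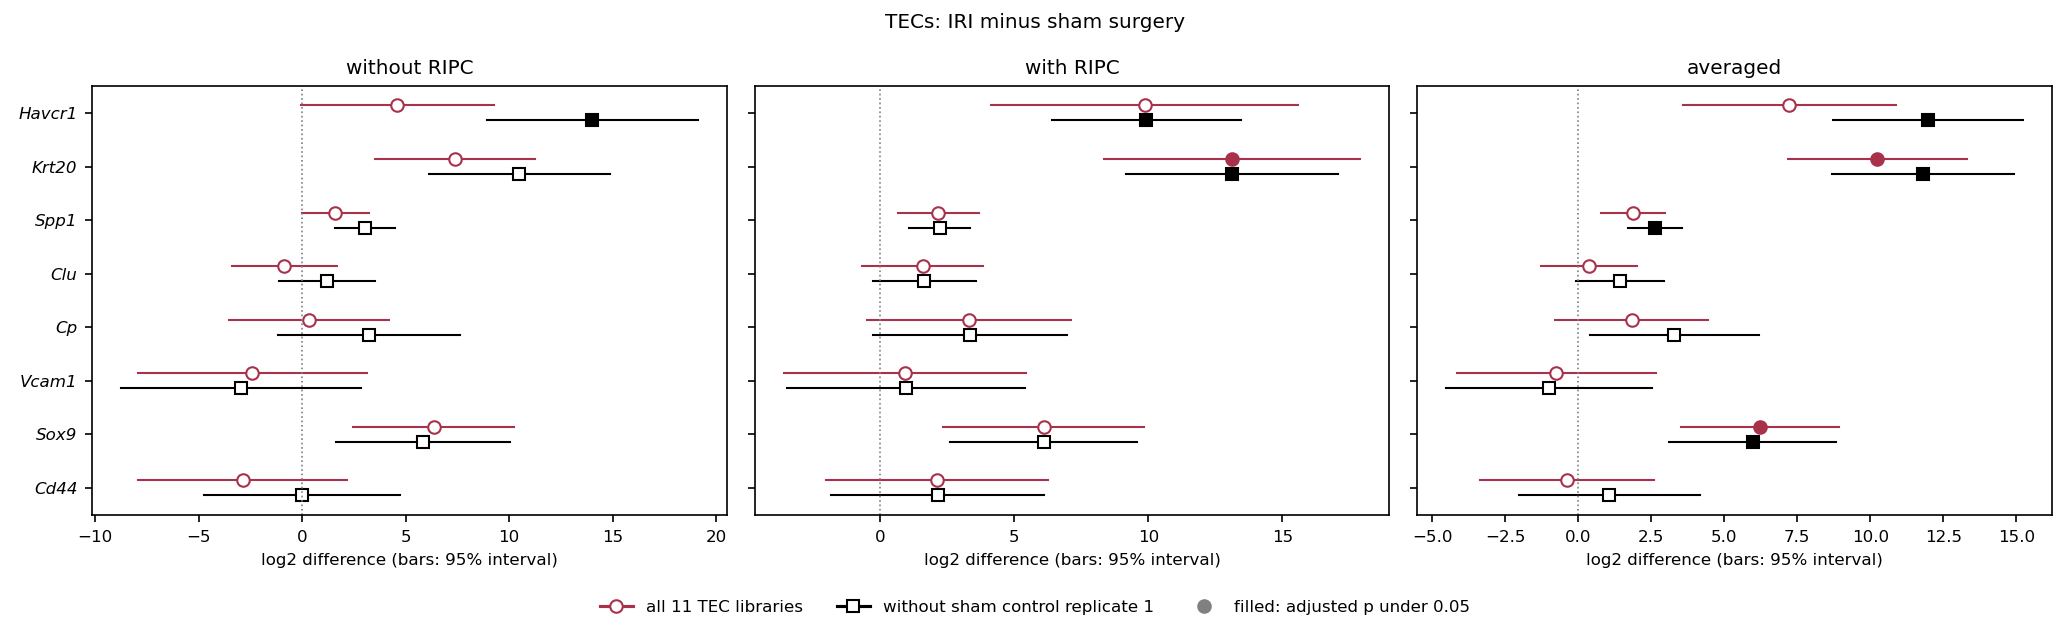
Log2 difference between IRI and sham surgery in TECs for the 8 genes, with 95% intervals, for all 11 libraries (red circles) and without replicate 1 of sham control (black squares), filled where the adjusted p was under 0.05. With all libraries Krt20 (10.24) and Sox9 (6.23) are filled, and without that library Havcr1 (11.97) and Spp1 (2.62) are filled as well.

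Within the groups, the direction was the same with and without RIPC for these 4 genes, at fewer libraries. Among TECs without RIPC, IRI and sham libraries did not overlap for Havcr1, Krt20, Spp1 and Sox9, each higher after IRI, which 13.7% of genes tested also showed with these group sizes. None of the 8 passed edgeR's test there, and 0.00386% of genes did, while 2 passed at an unadjusted p under 0.05 (Krt20 and Sox9), where 8.59% of genes did, and DESeq2's Wald test called 2, where it called 5.08% of genes. Without replicate 1 of sham control Havcr1 passed it (14.02, adjusted p = 0.0403), where 0.134% of genes did. Leaving out replicate 1 of IRI control brought Krt20 (adjusted p = 0.00662) and Sox9 (0.0288) under the threshold, and leaving out replicate 2 brought Krt20 (0.00944).

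Among TECs with RIPC, the same 4 genes were higher in every IRI library than in every sham library, which 7.64% of genes tested showed. Krt20 passed the test at a log2 difference of 13.12 ± 2.24 (adjusted p = 0.0482), where 0.0154% of genes rose. That call lay close to the threshold and was lost in 7 of 11 fits that left out 1 library, those without replicate 2 or 3 of sham control (adjusted p = 0.0651 and 0.0848), replicate 1, 2 or 3 of sham RIPC (0.200, 0.234 and 0.108) or replicate 1 or 2 of IRI RIPC (0.0582 and 0.0580). Havcr1 passed without replicate 1 of sham control (adjusted p = 0.0249), and without replicate 1 or 2 of IRI control Havcr1 (0.00413 and 0.00267), Spp1 (0.0380 and 0.0298) and Sox9 (0.0148 and 0.0121) passed.

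Of 30 other genes of tubular injury, 28 were tested in TECs. After IRI 5 rose, where 0.255% of all genes tested rose, and none fell, and the median log2 difference was 2.18. Plin2, which coats lipid droplets, rose by 4.40 (adjusted p = 0.00672), from a median of 165 CPM (123 to 2764 CPM) in 6 sham libraries to 9410 CPM (5218 to 12484 CPM) in 5 IRI libraries. Vim, the mesenchymal filament vimentin, rose by 8.14 (adjusted p = 0.00718), from a median of 0.0997 CPM (0 to 5.93 CPM) to 39.7 CPM (16.9 to 59.5 CPM). Both left no overlap between sham and IRI libraries.

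Lgals3, galectin-3, rose by 5.84 (adjusted p = 0.0169), from a median of 6.53 CPM to 1030 CPM. Anxa2, a membrane-binding annexin, rose by 4.83 (adjusted p = 0.0254), and Tnfrsf12a, the receptor of TWEAK, rose by 3.04 (adjusted p = 0.0343). Without replicate 1 of sham control, which was set apart by the sum of this list, 12 of 27 tested rose and none fell, where 0.348% of all genes rose. Among the 12 were Lcn2, the fibrinogen chains Fga, Fgb and Fgg, and Cdkn1a. That library was left out because this list was high in it, so the count is not independent of that choice. The 2 other injury genes with a negative difference and the smallest p, Itgb6 and Igfbp7, differed by -1.27 and -0.61 and did not pass. Of 18 genes of the healthy proximal tubule, 8 fell after IRI, where 1.15% of all genes tested fell, and none rose, and their summed level lay between 17619 and 28008 CPM in sham TECs and between 4026 and 12378 CPM in IRI TECs. In bulk samples, fewer cells of a type and less RNA per cell cannot be told apart.

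Summed markers of several other cell types also reached higher levels in TECs after IRI, but not those of macrophages or of distal tubule and collecting duct. The 9 neutrophil markers summed to between 1.91 and 34.2 CPM after sham surgery and between 35.5 and 123 CPM after IRI, 5 of 7 tested were higher at an unadjusted p under 0.05, where 6.42% of genes were, and Ly6g was at 0 in all 6 sham libraries and in 3 of 5 IRI libraries. The 4 measured globin genes summed to between 4.59 and 806 CPM after sham surgery and between 79.0 and 842 CPM after IRI. The 7 fibroblast markers summed to at most 9.61 CPM after sham surgery and 45.0 CPM after IRI, and the 4 podocyte markers to between 0.194 and 152 CPM and between 7.84 and 962 CPM. Endothelial markers summed to between 6.64 and 85.8 CPM after sham surgery and between 6.56 and 314 CPM after IRI. Lymphocyte markers summed to at most 4.41 and 23.8 CPM. Macrophage markers lay between 3.57 and 36.2 CPM after sham surgery and between 10.4 and 36.0 CPM after IRI. Those of distal tubule and collecting duct lay between 204 and 1245 CPM and between 97.6 and 634 CPM. The part of these cells in the members' levels was not tested.

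**Figure D3:**
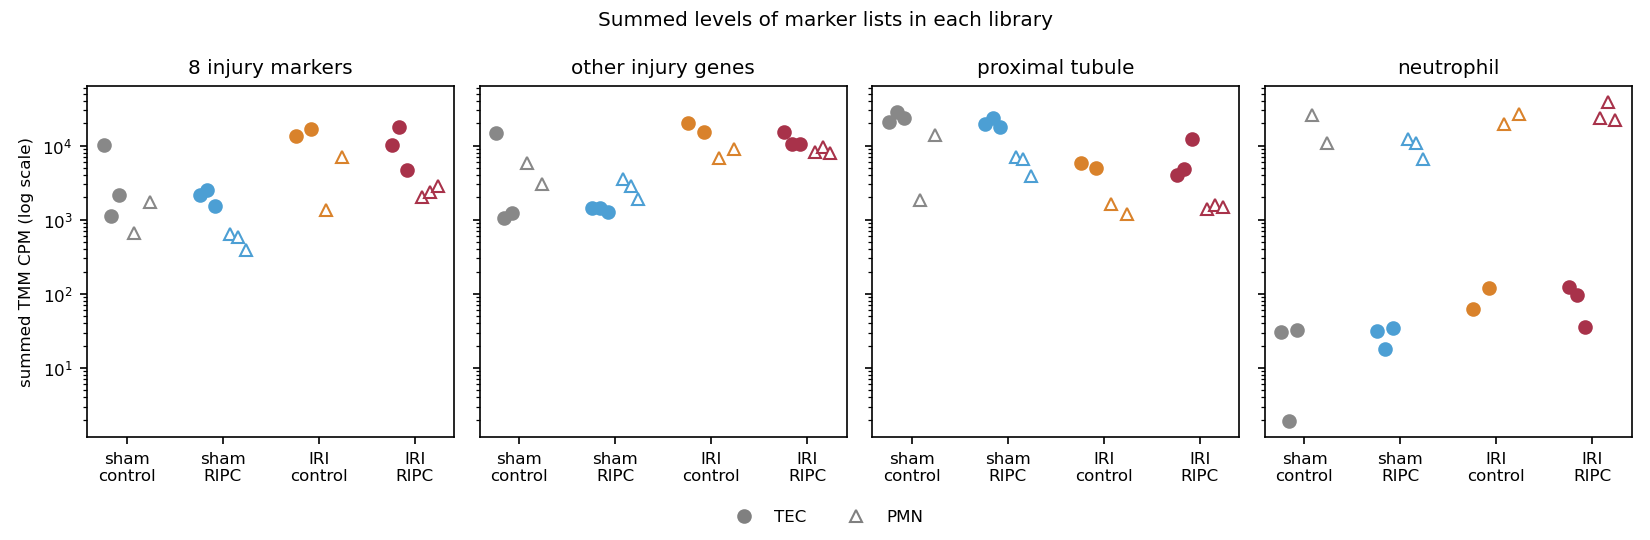
Summed CPM of the 8 genes, the other injury genes, the proximal tubule list and the neutrophil list in each library, with TECs as filled circles and PMNs as open triangles, on a log scale. In TECs the 8 genes sum to between 1118 and 10286 CPM after sham surgery and between 4737 and 17606 CPM after IRI, and the proximal tubule list runs the opposite way.

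RIPC did not detectably lower the markers after IRI. No member passed the test between IRI RIPC and IRI control TECs. Havcr1 was the only one of the 8 lower in every RIPC library (400, 536 and 80.2 CPM) than in every control library (727 and 612 CPM), and its log2 difference was -0.98 ± 2, with a 95% interval from -5.26 to 3.30. Its lowest value, in replicate 3 of IRI RIPC, was also the library with the highest proximal tubule sum after IRI, 12378 CPM against 4026 to 5854 CPM in the other 4, and without it the difference was -0.48 ± 2.22.

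Krt20 (1379, 414 and 1491 CPM against 993 and 991 CPM) overlapped between the groups and differed by 0.14 ± 1.51 (-3.08 to 3.36). Sox9 (121, 178 and 394 CPM against 109 and 137 CPM) differed by 0.90 ± 1.61 (-2.55 to 4.36), with the highest value in the replicate where Havcr1 was lowest. Thus that library was low for the injury receptor and high for the keratin and the transcription factor. Spp1 (8207, 16048 and 2695 CPM against 11427 and 14975 CPM) differed by -0.56 ± 0.75 (-2.16 to 1.05), and without replicate 3 of IRI RIPC by -0.09 ± 0.72.

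Clu differed by 1.76 ± 1.23 (-0.87 to 4.39), which rested on replicate 2 of IRI RIPC at 413 CPM, and without it the difference was -0.28. Cp differed by -0.32 ± 1.80 (-4.17 to 3.53), and by 0.23 without replicate 3. Cd44 (37.1, 1.06 and 10.6 CPM against 0.81 and 0 CPM) and Vcam1 were higher in every RIPC library than in every control library, by 5.30 ± 2.69 (-0.45 to 11.1) and 2.06 ± 2.54 (-3.37 to 7.49). By level, Cd44 ranked 3532, 14954 and 7920 among the 25917 genes tested in the 3 RIPC libraries, and Vcam1 ranked 10577, 16002 and 14542. In reads, Cd44 had 951, 23 and 225 with RIPC against 20 and 0, and Vcam1 had 143, 14 and 20 against 14 and 12. In replicate 2 of IRI RIPC both were thus close to an IRI control library, and for Vcam1 only the scaling set them apart.

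Markers of other cell types differed between the same groups. The 8 macrophage markers summed to between 26.7 and 36.0 CPM in IRI RIPC TECs and to 10.4 and 22.8 CPM in IRI control TECs, also without overlap, and Adgre1, which encodes the macrophage antigen F4/80, reached at most 0.351 CPM in the 5 libraries and was at 0 in 3 of them. The 8 endothelial markers were all lower with RIPC in the fit and summed to between 6.56 and 148 CPM against 191 and 314 CPM. Of 11 genes of distal tubule and collecting duct, 4 were higher at an unadjusted p under 0.05, where 1.72% of all genes were, though their summed level overlapped (97.6 to 437 CPM against 215 and 634 CPM). None of these markers passed after adjustment, and their part in the levels of Cd44 and Vcam1 was not tested.

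Thus 1 of 8 members was lower without overlap, where 8.89% of genes tested were, and 2 were higher, where 7.76% were. None of the 8 passed edgeR's test (0.00386% of genes did), 0 passed at an unadjusted p under 0.05 (4.35% of genes did), and DESeq2 called 0 by the Wald test and 0 with apeglm, where it called 2.7% and 0.907% of genes. The median log2 difference of the 8 was 0.52, against 0.15 over all genes. None of 28 other injury genes passed, 20 of them had a negative and 8 a positive difference, and their median was -0.46. Of those named above for rising after IRI, Plin2, Lgals3, Anxa2 and Vim were lower in every RIPC library than in every control library. For Plin2 the levels were 9410, 5803 and 5218 CPM against 12484 and 9535 CPM. Tnfrsf12a overlapped. Over all genes tested, 8.89% were lower without overlap. The named genes were picked by a comparison that uses the same IRI libraries, so their separation is a description only. The intervals of Havcr1 and Krt20 include lower as well as higher levels by several-fold, so a change of that size was not detectable with these libraries.

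**Figure D4:**
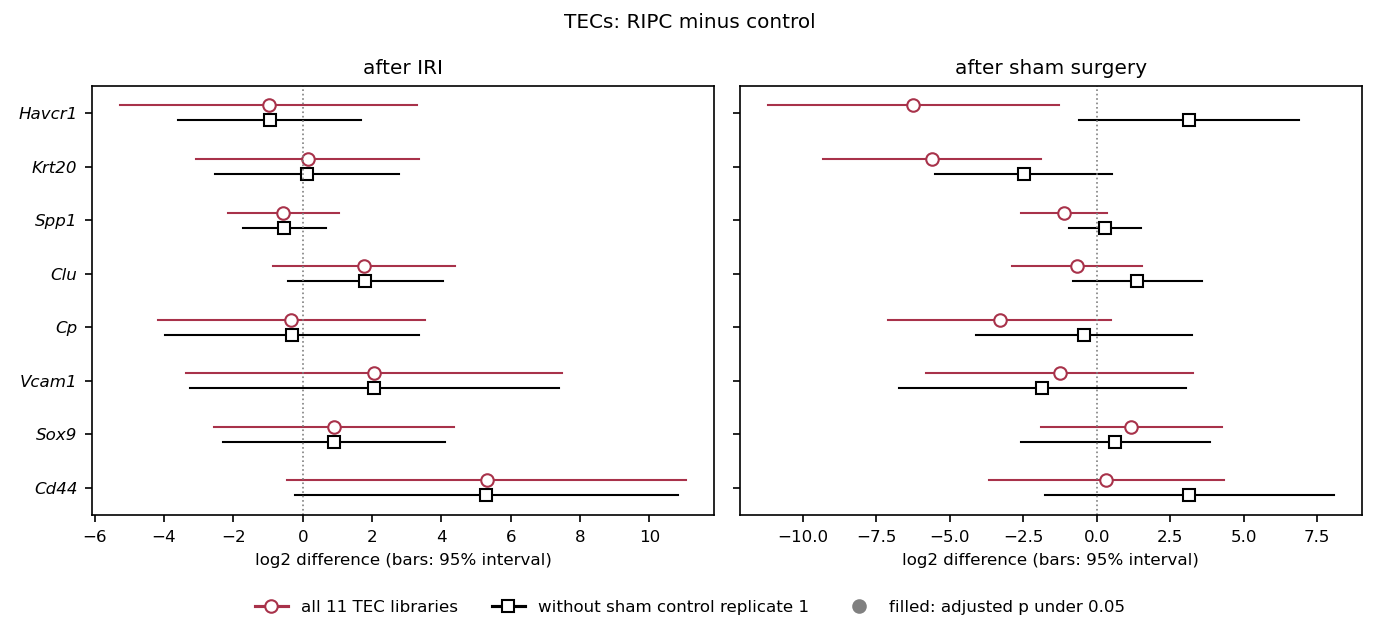
Log2 difference between RIPC and control in TECs, after IRI and after sham surgery, for the 8 genes with 95% intervals, for all 11 libraries (red circles) and without replicate 1 of sham control (black squares). After IRI the values run from -0.98 for Havcr1 to 5.30 for Cd44, and after sham surgery those of Havcr1 (-6.24) and Krt20 (-5.61) move to 3.14 and -2.49 without that library.

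After sham surgery the differences of Havcr1, Krt20 and Spp1 between RIPC and control hung on replicate 1 of sham control. Havcr1 differed by -6.24 ± 2.31 (adjusted p = 0.708) and Krt20 by -5.61 ± 1.73 (adjusted p = 0.708) in edgeR's quasi-likelihood test over all genes. No member passed after adjustment, as for 0% of genes tested, 2 were lower at an unadjusted p under 0.05, where 1.2% of genes were, and DESeq2 called 0 by the Wald test, where it called 1.64% of genes. Without that library the differences were 3.14 ± 1.74 for Havcr1 and -2.49 ± 1.41 for Krt20, and the counts behind them were 0 and 2 reads of Havcr1 in the 2 control libraries and 27, 0 and 0 reads in the RIPC libraries. Spp1 differed by -1.12 ± 0.69 with all libraries and by 0.29 ± 0.57 without it.

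The remaining sham differences were -0.67 for Clu, -3.31 for Cp, -1.27 for Vcam1, 1.17 for Sox9 and 0.32 for Cd44, none of them past the threshold. Those of Clu and Cp also leaned on replicate 1 of sham control, their highest sham library (222 and 75.6 CPM). Over fits that left out 1 library, Clu ran from -1.17 to 1.38 and Cp from -3.90 to -0.44. Averaged over both operations, RIPC and control differed by -3.61 ± 1.47 for Havcr1 and -2.73 ± 1.09 for Krt20, both at an adjusted p of 0.596 in edgeR's test, where 0% of genes passed and 2.75% were lower at an unadjusted p under 0.05, and without replicate 1 of sham control by 1.09 and -1.18. The test of whether the difference itself depended on surgery gave 5.75 ± 2.34 for Krt20 (adjusted p = 0.689) and 5.26 ± 3.04 for Havcr1 (adjusted p = 0.780), and 2.62 and -4.10 without that library, where with all libraries 0% of genes passed after adjustment and 7.21% before. The comparisons named here share libraries, so they are not independent of each other.

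In the PMN libraries Cd44, which neutrophils carry as a receptor for hyaluronan, was present in every library and rose after IRI. Spp1 was the one tubular marker above 200 CPM in every PMN library, and the other 6 varied widely between replicates. Cd44 was read at 133 and 78.2 CPM in sham control PMNs and at 196, 81.7 and 86.9 CPM in sham RIPC PMNs. After IRI it stood at 632 and 877 CPM in the control PMNs and at 823, 742 and 737 CPM in the RIPC PMNs, with no overlap between the operations.

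Cd44 rose by 2.75 ± 0.35 on the log2 scale (adjusted p = 0.0209) in edgeR's test over 25002 genes, where 0.364% of genes rose. The value moved little when 1 library was left out (2.64 to 3.01), but the call was lost without replicate 2 of IRI control (adjusted p = 0.0563) and without replicate 1, 2 or 3 of IRI RIPC (0.0700, 0.0790 and 0.0662). Between RIPC and control it differed by 0.03 ± 0.45 after IRI, with a 95% interval from -1 to 1.05, and by 0.20 ± 0.46 after sham surgery (-0.83 to 1.23). The neutrophil markers summed to between 6670 and 25674 CPM after sham surgery and between 19797 and 38756 CPM after IRI, and the macrophage markers, of cells that also carry Cd44, to between 2682 and 9158 CPM and between 781 and 1815 CPM.

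**Figure D5:**
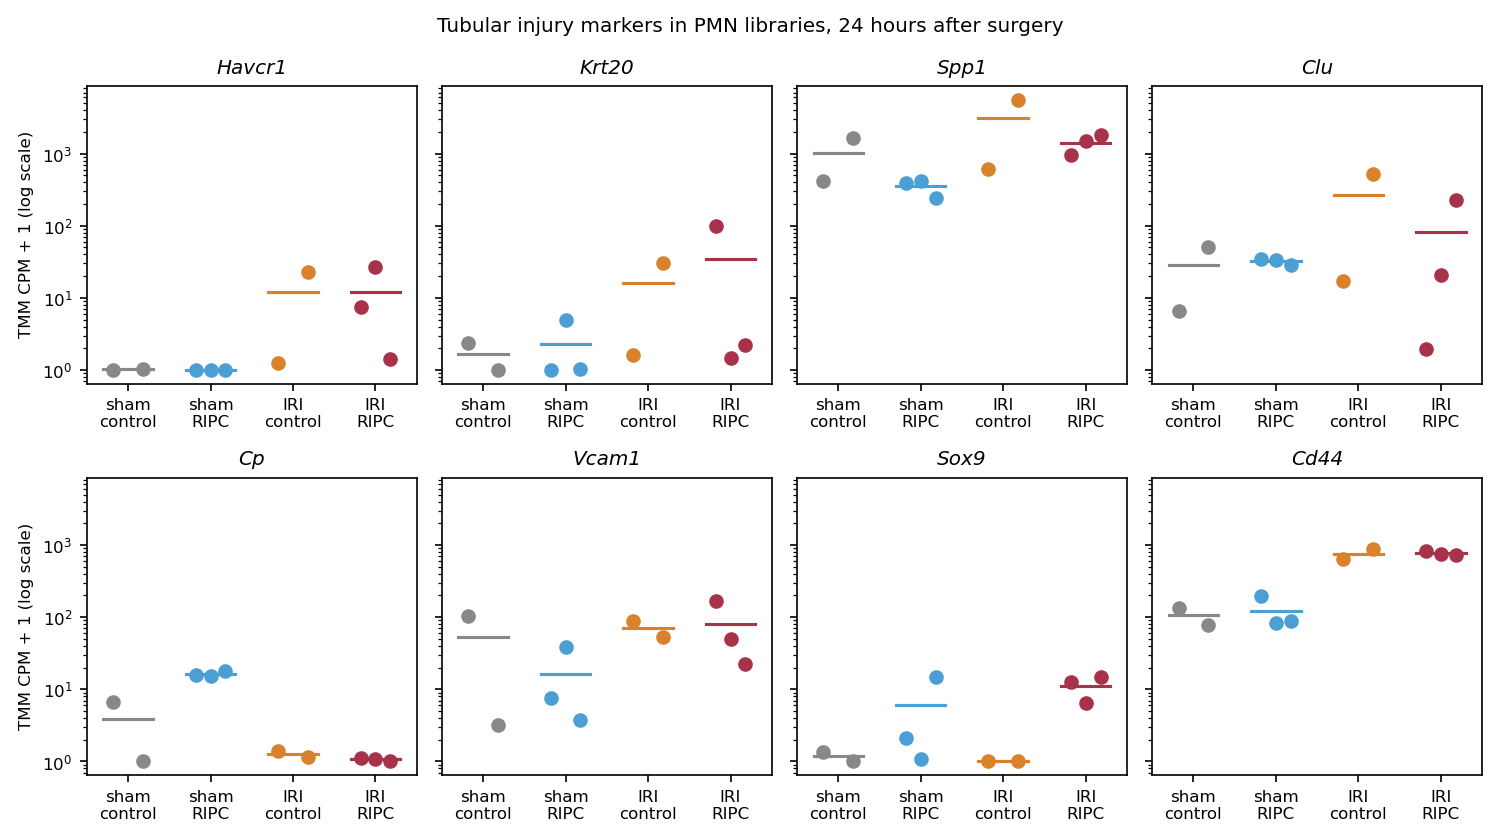
Level of each of the 8 genes in every PMN library (CPM plus 1 on a log scale) in the 4 groups, with each group's mean as a horizontal bar. Cd44 lies between 78.2 and 196 CPM after sham surgery and between 632 and 877 CPM after IRI, and Havcr1 is read in every IRI library and at no more than 1 read in a sham library.

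Havcr1 reads also appeared in the PMN libraries after IRI, at 0.249 and 22.0 CPM in the control PMNs and at 6.53, 25.9 and 0.423 CPM in the RIPC PMNs, which were 6, 583, 168, 629 and 11 reads. The 5 sham libraries held 0 or 1 read. The groups did not overlap for Havcr1 and Cd44, a separation upwards that 3.43% of genes tested had, and the log2 difference of Havcr1 was 9.83 ± 2.50 (adjusted p = 0.238). Spp1 was present in every PMN library, at 409 and 1628 CPM in sham control, 387, 421 and 240 CPM in sham RIPC, 602 and 5605 CPM in IRI control, and 939, 1503 and 1820 CPM in IRI RIPC PMNs (1.82 ± 0.60, adjusted p = 0.350). Levels of these tubular genes in PMNs stand beside the proximal tubule transcripts in the same libraries, which were lower after IRI than after sham surgery, and the part of carried-over tubular RNA was not tested.

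Cp ran the other way in PMNs, with 146 and 0 reads in sham control, 310, 325 and 349 reads in sham RIPC, and 10 or fewer reads in each of the 5 IRI libraries. Its log2 difference was -5.53 ± 1.87 (adjusted p = 0.358 in edgeR's test). The remaining genes were scattered among replicates. Clu ranged from 5.6 to 49.7 CPM after sham surgery and from 0.971 to 518 CPM after IRI, Krt20 from 0 to 3.88 CPM and from 0.453 to 99.2 CPM, and Vcam1 from 2.23 to 103 CPM and from 21.4 to 167 CPM. Of 29 other injury genes tested in PMNs, Hmox1, the stress-induced heme oxygenase, alone rose after IRI (3.24, adjusted p = 0.0393), and none fell.

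Between RIPC and control PMNs, edgeR's test called none of the 8 after IRI, as for 0% of genes tested, and none after sham surgery, where 0.004% of genes were called. After IRI, 1 member passed at an unadjusted p under 0.05, where 2.72% of genes did, and DESeq2's Wald test called 1, where it called 1.72% of genes, in both cases Sox9. It was read at 0 and 0 reads in the IRI control PMNs and at 297, 132 and 360 reads in the IRI RIPC PMNs, a mean of 10.3 ± 4.35 CPM (SD, n = 3). Against the 3 reads per library that a count of 0 allows, that mean was 86.6-fold higher. This ratio leaves out the spread between libraries and is not a lower bound, and the lowest IRI RIPC PMN library stood at 5.43 CPM. The fitted log2 difference of Sox9 was 10.94 ± 3.63 (2.74 to 19.1), with an adjusted p of 0.920 in edgeR's quasi-likelihood test. Sham PMNs held from 0 to 284 reads of Sox9. After sham surgery 0 members passed at an unadjusted p under 0.05, where 4.6% of genes did, and DESeq2's Wald test called 0, where it called 3.25% of genes.

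Between the cell types, averaged over the 4 treatments in one fit of all 21 libraries, 6 of the 8 differed, where 6.87% of genes tested did. Havcr1 (6.64 ± 1.58, adjusted p = 0.0133), Spp1 (2.21 ± 0.44, adjusted p = 0.00307), Cp (3.97 ± 1.16, adjusted p = 0.0421) and Sox9 (5.26 ± 1.22, adjusted p = 0.01) were higher in TECs. Vcam1 (-5.03 ± 0.95, adjusted p = 0.00177) and Cd44 (-6.75 ± 0.88, adjusted p = 4.23e-05) were higher in PMNs, and Cd44 alone did not overlap between the cell types, a separation downwards that 0.818% of genes had. Krt20 (2.59 ± 1.22, adjusted p = 0.263) and Clu (0.12 ± 0.76) did not pass. The call of Cp was lost in 11 of 21 fits without 1 library, with adjusted p-values up to 0.119, and that of Havcr1 without replicate 1 of sham RIPC TECs (5.14, adjusted p = 1.00).

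The effect of IRI was then set against itself between the cell types. The difference of the effects was 8.33 for Sox9, 7.38 for Cp, 5.66 for Krt20 and -3.09 for Cd44 in edgeR's quasi-likelihood test, and none of the 8 passed after adjustment, as for 0% of genes tested. At an unadjusted p under 0.05 these 4 of 8 passed, where 9.76% of genes tested passed, and DESeq2's Wald test called 3, where it called 7.54% of genes. Thus, Cd44 rose in PMNs and did not pass in TECs, but the effects were not shown to differ.

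Across the 11 TEC libraries the levels of Havcr1 and Krt20 went together (Pearson's r of log2 CPM plus 1 of 0.942), as did Havcr1 and Spp1 (0.919) and Krt20 and Sox9 (0.896). The libraries fall into sham and IRI groups, so these values describe that split as well. The gene most like Spp1 was Fgb, a fibrinogen chain on the list of other injury genes (r = 0.969), and the gene most like Sox9 was Emp1, an epithelial membrane protein (r = 0.939). For Havcr1 the 3 most like were Olfr1033 (r = 0.992), Gm48942 (r = 0.990) and Gm29371 (r = 0.989). The most like was for Krt20 Hmga1b (r = 0.969), for Clu Gm8050 (r = 0.949), for Cp Vmn2r19 (r = 0.940), for Vcam1 the pseudogene Gm5597 (r = 0.975) and for Cd44 Pknox2 (r = 0.955), each over the same 11 libraries. Vmn2r19 and Gm5597 were near the floor, reaching at most 1.90 and 1.99 as log2 CPM plus 1. These genes were picked for the highest r among all genes tested, so high values follow in part from that choice. Hmga1b is a near copy of Hmga1 and may share reads with it.

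Per length, the order of the 8 in TECs by median TPM was Spp1 (859, range 410 to 6884), Havcr1 (15.5, 0 to 142), Clu (13.8, 4.39 to 150), Cp (3.79, 0 to 12.0), Krt20 (3.64, 0 to 418), Sox9 (1.15, 0 to 44.7), and Vcam1 and Cd44 (0.0875 and 0.0855). Over sham and IRI libraries together the ranges of Havcr1, Clu, Cp, Krt20 and Sox9 overlap, so their order is not set by the pooled medians. After IRI alone, Krt20 (123 to 418 TPM) lay above Sox9 (15.5 to 44.7 TPM), and Sox9 above Cp (1.60 to 10.9 TPM), without overlap. The IRI ranges of Havcr1 (15.5 to 142 TPM) and Clu (5.75 to 150 TPM) overlapped that of Krt20. In PMNs Spp1 (395, 113 to 2798) and Cd44 (58.4, 9.63 to 108) led by median TPM.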

How the data were processed

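RNA-Seq libraries of TECs from kidney and PMNs from blood were analysed, 21 in 8 groups taken from the sample labels. Poly(A) RNA had been copied to cDNA and sequenced from one end, and the authors trimmed the reads with Trim Galore 0.6.4 and quantified them with Salmon 1.0.0 (build mm10 in the submitters' processing notes). Per the file headers, the deposited values were estimated counts, TPM and effective lengths per transcript, none of them normalized between libraries. The authors deposited 2 files for each library, whose estimated counts were added, and file 1 held between 45.6% and 52.7% of a member's reads wherever these came to at least 100 in a library. TPM was averaged over the files and used only to order genes by level per length. Transcripts were matched to Gencode M21 of GRCm38, where the study names another release, and 884 of 140748, with between 0.139% and 0.255% of reads, had no match. Counts were summed per gene and rounded, and 3717 genes of the sex chromosomes and the mitochondrion (between 3.11% and 30.6% of reads) were left out, as in the study.

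Differences were tested with edgeR 4.0.16 in R 4.3.3 (quasi-likelihood F test, limma 3.58.1) on all libraries of a cell type, or on all 21 for TECs against PMNs, with TMM, filterByExpr, one mean per group and Benjamini-Hochberg adjustment over all genes tested (25917 in TECs, 25002 in PMNs, 31769 together), with calls at an adjusted p under 0.05. The floor of a library was 3 reads, for counting error only, since PCR reads are not independent molecules. The members, the lists of other genes and the comparisons were chosen with earlier results of these data known. Besides the members, other injury genes are named where they passed the test, or else the 2 per direction with the smallest unadjusted p, as are the gene (for Havcr1 the 3 genes) with the highest Pearson's r of log2 CPM plus 1 over the 11 TEC libraries. Promoters came from a RefSeq table of GRCm38.p6. The alternatives were scaling by library size alone or by the size factors of DESeq2, no filter, at least 10 counts in every library, either file alone, an offset for transcript length, a replicate block, a fit of just the compared groups, each library left out, and DESeq2 1.42.0 with the Wald test or with apeglm 1.24.0 (s value under 0.01).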

Additional observations from a re-analysis of the deposited data

How the results depend on the processing

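In TECs after IRI, RIPC against control gave 0 of the 8 members under each of the alternatives tried. Where a count of members moved by over 1.5 times, it did so mostly without a filter on low counts and with DESeq2. The share of all genes called by the same fit stands in brackets. For IRI against sham TECs without RIPC (0 members), no filter gave 4 (1.18%), the Wald test of DESeq2 2 (5.08%) and apeglm 2 (4.29%). With RIPC (1 member), no filter gave 4 (1.19%), the Wald test 3 (3.91%), apeglm 3 (4.26%) and the compared groups alone 0 (0%). There, at least 10 counts in every library gave 0 of the 2 members it tested (1.17%), and Krt20 was not among these. Averaged (2 members), no filter gave 4 (3.26%), the Wald test 4 (8.62%), apeglm 4 (9.68%) and at least 10 counts in every library 1 of the 2 members it tested (Spp1, 9.84%). In PMNs, IRI against sham (1 member) gave 3 with no filter (2.5%), 3 with the Wald test (7.82%) and 4 with apeglm (8.29%). No filter also gave 2 for RIPC after sham surgery in TECs (0.137%), 3 for RIPC averaged over surgery (0.228%), 2 for its interaction with surgery (0.213%) and 4 for the difference of the IRI effects between cell types (1.66%), where the Wald test gave 3 (7.54%) and apeglm 2 (3.79%). For RIPC after IRI in PMNs the Wald test gave 1 (1.72%), and for TECs against PMNs at least 10 counts gave 1 of the 2 it tested (27.6%), against 6. The compared groups alone could not be fitted for averaged, interaction and between-cell comparisons.

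The labels pair no libraries, and same-numbered libraries did not deviate together, with correlations after removal of the group means from -0.0234 to 0.0304 over 13 pairs in PMNs and from -0.106 to 0.139 over 15 pairs in TECs. With the replicate number as a block, 1 member passed for IRI against sham TECs without RIPC (0.104% of genes), 2 with RIPC (0.189%) and 0 in PMNs (0.092%), and the differences between RIPC and control in TECs after IRI changed sign for Havcr1 (0.22), Krt20 (-0.96) and Sox9 (-0.023), none past the threshold. With the offset for transcript length, the difference of Vcam1 between IRI and sham TECs, averaged over RIPC and control, was 0.21, and with library size alone that of Cd44 between RIPC and control PMNs after IRI was -0.049, and the cause was not tested.

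Leaving out 1 library moved the count from 0 to 2 for IRI against sham TECs without RIPC, from 0 to 4 with RIPC, from 1 to 4 averaged and from 0 to 1 in PMNs. Log2 differences that changed sign then were, for RIPC in TECs after IRI, Krt20 (-0.13 to 0.53), Clu (-0.28 to 2.30) and Cp (-1.90 to 0.23). After sham surgery they were Havcr1 (-12.41 to 3.14), Spp1 (-1.58 to 0.29), Clu (-1.17 to 1.38), Vcam1 (-2.31 to 1.39), Sox9 (-0.42 to 6.31) and Cd44 (-0.24 to 3.15). For IRI in TECs they were Clu (-0.66 to 1.43), Vcam1 (-1.54 to 0.58) and Cd44 (-3.55 to 1.06), for RIPC averaged Havcr1 (-6.69 to 1.09) and for its interaction with surgery Havcr1 (-4.10 to 11.42). In PMNs they were, for RIPC after IRI, Spp1 (-1.98 to 1.27) and Cd44 (-0.19 to 0.31), and after sham surgery Cd44 (-0.33 to 0.60). For TECs against PMNs it was Clu (-0.41 to 1.17). Groups of 2 libraries, and members at 0 to 36 reads in most sham TEC libraries, limit what these data can show. Where 1 library was left in a group, it was taken to vary like the other groups.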
